A study of Mus musculus with 4 samples.

Results

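The genes described here encode the proteins of the cytosolic ribosome, the particle that translates messenger RNA in the cytoplasm. They were chosen by name alone, as the genes whose symbol is Rpl or Rps followed by a number and an optional a, x, l, l1 or al, or Rplp0 to Rplp2 or Rpsa. The rule found 84 of 24418 genes listed, of which 32 belong to the small 40S subunit and 52 to the large 60S subunit. RNA was sequenced from regulatory T (Treg) cells, the CD4 T cells that express Foxp3 and restrain immune responses, sorted from spleen and lymph nodes of Foxp3yfpCre mice that were 8 to 12 weeks old. In these mice the Foxp3 gene drives a yellow fluorescent protein fused to Cre recombinase, and all 4 samples carry it, so the sort selected cells by that reporter. The study compared 2 groups of 2 samples after 3 h of culture, one with PBS, the buffer control, and one with 100 ng/mL thymic stromal lymphopoietin (TSLP), a cytokine released by epithelial cells. Neither the labels nor the methods say whether the 2 samples of a group came from separate mice or were pooled, so the p-values measure only the spread between these samples, which may be technical.

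The ribosome joins ribosomal RNAs to a single copy of most of these proteins, and the cell makes the proteins in matched amounts. In mammals many of their messenger RNAs begin with a C followed by an unbroken run of pyrimidines, the 5′ terminal oligopyrimidine (TOP) motif, through which the kinase complex mTORC1 raises their translation. mTORC1 also activates the kinases that phosphorylate the 40S protein Rps6. Activated T cells are known to make more ribosomes as they grow. RNA sequencing counts the messenger RNA and does not read its translation or the phosphorylation of Rps6.

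The start of these transcripts is shown because it holds the TOP letters. RefSeq starts on GRCm38.p6 were matched for 63 members and not for the other 21. A C within 5 bases of the annotated start, followed by at least 4 unbroken C or T, stood in 29 of the 63 (46.03%) against 21.16% of 27025 genes and 21.54% of the 17492 that code for proteins. In the region from 250 bases before to 50 bases after the start, on either strand, CCGGAAG, the letters bound by ETS family factors, stood in 25 (39.68% against 9.928% of all and 12.95% of protein-coding genes). AAGATGG, the letters of YY1, stood in 10 (15.87% against 7.278% and 7.18%), and GGGCGG, the letters of SP and KLF factors, in 39 (61.9% against 38.2% and 49.23%). A match describes the letters and is not a measured site. The windows below run 5′ to 3′ from 10 bases before the annotated start through the first 20 bases from it, with the TOP-like run in capitals. They show runs of 8 to 14 bases, the paralog Rpl22l1 among them, and Rpl11 and the paralog Rpl7l1 with none. The runs in matched members had 5 to 20 bases.
Rpl13a (chr7:45128726-45128755, minus strand): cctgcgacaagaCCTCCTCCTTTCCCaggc
Rps10 (chr17:27635225-27635254, minus strand): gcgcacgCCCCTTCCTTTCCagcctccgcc
Rps18 (chr17:33955646-33955675, minus strand): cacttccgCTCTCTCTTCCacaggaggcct
Rps6 (chr4:86857348-86857377, minus strand): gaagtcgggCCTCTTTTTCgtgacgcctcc
Rplp2 (chr7:141447641-141447670, plus strand): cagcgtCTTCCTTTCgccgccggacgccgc
Rpl22l1 (chr3:28805498-28805527, plus strand): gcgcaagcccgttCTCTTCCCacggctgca
Rpl11 (chr4:136053374-136053403, minus strand): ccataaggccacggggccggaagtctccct
Rpl7l1 (chr17:46782637-46782666, minus strand): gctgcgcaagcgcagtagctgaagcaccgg

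The 4 libraries held 11328132 (PBS 1), 10724392 (PBS 2), 11761234 (TSLP 1) and 10271571 (TSLP 2) reads on genes. Treg markers were present in all of them. Foxp3 stood at 222 (PBS 1), 472 (PBS 2), 407 (TSLP 1) and 469.7 (TSLP 2) CPM, which are the reads of a gene scaled to the library's reads on genes. All 7 Treg markers (Foxp3, Il2ra, Ctla4, Ikzf2, Tnfrsf18, Cd4 and Cd3e) had reads, and their sums were 3692, 4223, 4157 and 4463 CPM in the same order, with Ctla4 the most abundant. Other cell types gave little signal. The 6 B cell markers summed to 1.32, 10.4, 5.02 and 10.6 CPM with Pax5 at 0, and the 2 CD8 markers to 13.4, 7.83, 8.84 and 11.97 with Cd8b1 the most abundant. The 6 myeloid markers summed to 61.5, 40.1, 41.2 and 42.5, mostly from Cst3, with Adgre1 at 0. The 4 platelet markers stayed under 5 with Pf4, Ppbp and Gp9 at 0, and all 4 globin genes, the erythroid markers given here, were at 0. The 6 markers of naive T cells, which Treg cells partly share, summed to 2965, 2480.0, 2566 and 2453, led by Ccr7, and the 6 of conventional T cells to 283.5, 277.9, 329.3 and 252.7, led by Bcl6.

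The library PBS 1 stood apart from the other 3 in ways the treatment does not separate. Of the 7 Treg markers 5, Foxp3 among them, were lowest there, while 2, Ctla4 and Tnfrsf18, were highest there. The nuclear RNA Malat1 stood at 1969.9 CPM (PBS 1), 4680.5 (PBS 2), 2991 (TSLP 1) and 3273 (TSLP 2). Not every nuclear RNA was lowest in PBS 1. Neat1 was lowest in TSLP 1 (510 CPM, beside 569 in PBS 1) and Kcnq1ot1 in TSLP 2 (27.4, beside 32.1). The ribosomal RNA precursor Rn45s stood at 5527 (PBS 1), 3842 (PBS 2), 2518 (TSLP 1) and 3729 (TSLP 2). Among 2552 other genes with a mean normalised read count (the reads of a gene divided by the size factor of its library) of at least 1000, the ratio of PBS 1 over the average of the remaining libraries fell with coding length, from a median log2 of 0.31 in the decile of genes with the shortest coding sequence to −0.66 in the decile with the longest. Ribosomal protein genes are short, with a median coding length of 453 bases. The comparison of the family between TSLP and PBS is therefore given with and without PBS 1, and what these library differences contribute to the results was not tested. In bulk RNA, fewer cells of a type and less RNA per cell cannot be told apart.

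Ribosomal protein mRNAs were abundant in these cells, with a median mean normalised read count of 4027 over tested members beside 318 over all genes tested, and their levels spread widely. Per kilobase of coding sequence, the median over 83 members was 765 CPM. The highest mean levels on that scale were those of Rplp1 at 4416, Rps14 at 4102, Rpl13a at 3661, Rps3 at 3661 and Rpl8 at 2667. Rplp1 is a protein of the stalk that recruits elongation factors, Rps3 lies at the mRNA entry channel, and Rpl8 lies near the centre where peptide bonds form. At the other end, 4 members had no read in any library, which allows up to 3 reads in each. They were Rpl26, a core protein of the large subunit, and Rpl10l, Rpl39l and Rpl3l, paralogs known from testis or from heart and skeletal muscle. Rpl34 had 0, 17, 8 and 0 reads and Rpl30 had 13, 3, 0 and 11 in PBS 1, PBS 2, TSLP 1 and TSLP 2. Both are core proteins of the large subunit. The 84 genes lie on 19 chromosomes in the GENCODE M21 annotation of GRCm38, with 4 of them on the X chromosome and at most 14 on one. Rps6 spans chr4:86854660-86857412 (minus strand), Rpl27 chr11:101442298-101445529 (plus strand), Rps27 chr3:90212522-90213651 (minus strand) and the unread Rpl26 chr11:68901583-68906989 (plus strand).

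**Figure D1:**
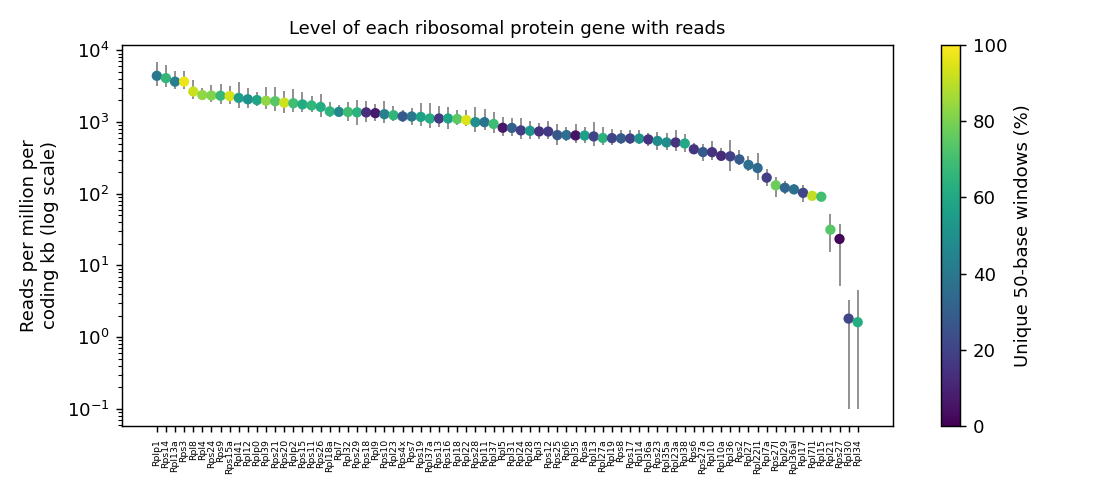
Mean level of 78 of the 79 ribosomal protein genes with reads and a coding length, in CPM per kilobase of coding sequence (log scale), in falling order. Points are means of the 4 libraries coloured by the percentage of 50-base windows found in no other gene, grey lines run from the lowest to the highest library, and a library at 0 is drawn at 0.1. Levels fall from 4416 for Rplp1 to under 2 for Rpl30 and Rpl34.

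These levels can depend on how reads shared with copies were counted, since the genome holds many processed pseudogenes of this family. Windows of 50 bases, the read length, were taken from the principal protein-coding transcript of each member. A median of 49.27% of a member's windows occurred in no other annotated gene (83 members). The median was 96.99% for 77 mitochondrial ribosomal protein genes and 98.76% for 79 genes of the respiratory chain. The unread Rpl39l and Rpl3l were at 100%, and 18 members were under 20%. Rps27 had 1.35% unique windows and shared 98.65% with one gene, Rps27rt, which had no reads. Its own normalised read counts were 69.8 (PBS 1), 14.0 (PBS 2), 71.6 (TSLP 1) and 101 (TSLP 2), where the median over tested members was 4027. A low unique share did not always go with a low count. Rpl9, chosen here after its values were seen, had 6.68% unique windows and 1331 CPM per coding kilobase, whereas Rpl26 had 38.96% and no reads. Over 83 members the unique share and this level had a Spearman correlation of 0.31, given as a description since the genes share libraries. Rpl30 had 20.79% unique windows. Rpl34 and Rpl21 were low too (Rpl21 at 31.5 CPM per coding kilobase), but with 62.09% and 73.82% unique windows they were above the family's median, although Rpl21 shared windows with 82 other genes. The counts of members that share windows are uncertain whether low or high, those of Rpl9 as well as those of Rps27, Rpl26 and Rpl30. Whether the sharing set any of these levels was not tested.

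The family's share of all reads on genes was 6.39% (PBS 1), 3.598% (PBS 2), 3.96% (TSLP 1) and 4.30% (TSLP 2). PBS 1 was the highest and PBS 2 the lowest library, and both TSLP libraries lay between them. The 95% Wilson intervals were 6.37% to 6.40%, 3.59% to 3.61%, 3.94% to 3.97% and 4.29% to 4.32%, and they cover counting error only, since reads without molecular identifiers are not independent molecules. The PBS mean was 4.99% ± 1.97 (SD, n = 2) and the TSLP mean 4.13% ± 0.246 (SD, n = 2), a difference of −0.862 percentage points (two-sided exact permutation test, p = 1, where 2 against 2 allows no p under 0.333). Against PBS 2 alone the TSLP mean was 0.532 points higher. The order of the libraries was the same for both subunits. The 40S genes took 2.87%, 1.57%, 1.74% and 1.90% and the 60S genes took 3.52%, 2.03%, 2.22% and 2.40% in PBS 1, PBS 2, TSLP 1 and TSLP 2. The 5 members with the most reads, Rpl4, Rps3, Rpl13a, Rpl8 and Rplp0, made up 1.61%, 0.965%, 1.052% and 1.12% of reads. Leaving them out gave 4.78%, 2.63%, 2.90% and 3.18%, in the same order.

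**Figure D2:**
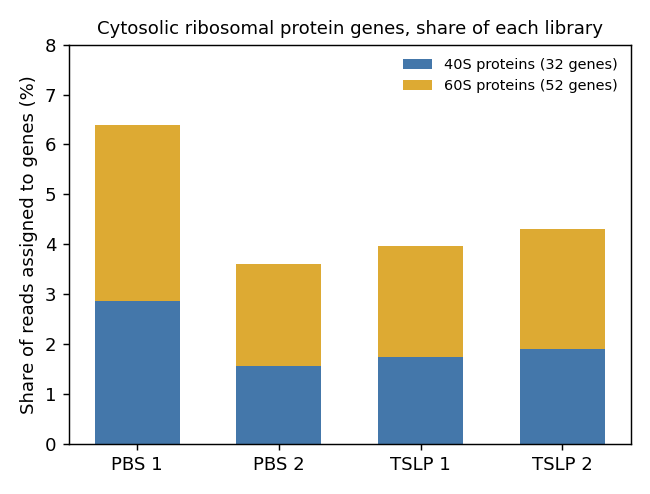
Share of the reads assigned to genes that fell on cytosolic ribosomal protein genes, in percent, for each of the 4 libraries, with bars stacked by subunit. PBS 1 reaches 6.39%, PBS 2 is lowest at 3.598%, and TSLP 1 and TSLP 2 lie between them at 3.96% and 4.30%.

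The filter, 10 normalised reads or more in 2 or more libraries, let 79 members into the test, while Rpl10l, Rpl26, Rpl34, Rpl39l and Rpl3l fell under it. PBS 1 was the highest of the 4 libraries in 76 of the 79, against 32.4% of all 11392 genes tested. The exceptions were Rps27, highest in TSLP 2, Rpl7l1, highest in PBS 2, and Rpl15, highest in TSLP 1. PBS 2 was the lowest library in 69 (21.8% of all genes). Both TSLP libraries were below PBS 1 in 76 members (37.8% of all genes), and in 68 they were also above PBS 2, a pattern of 11.9% of all genes. Both TSLP libraries were above both PBS libraries in 1 member, Rps27 (14.5% of all genes), and below both in 1, Rpl27 (14.4%). Members share the 4 libraries and are not independent of each other. For the 68 members with a mean of at least 1000, PBS 1 was highest in every one.

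**Figure D3:**
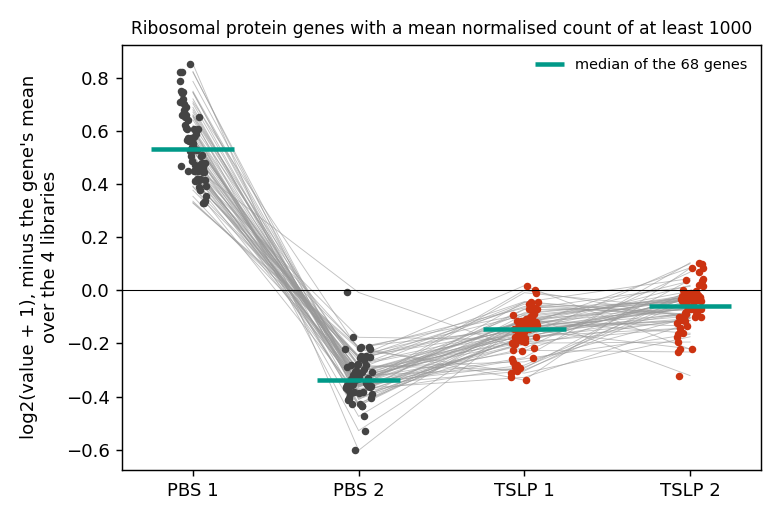
The 68 ribosomal protein genes with a mean normalised read count of at least 1000, as log2(normalised read count + 1) minus the gene's own mean over the 4 libraries. Grey lines join one gene across libraries, black points are PBS, red points TSLP, and green bars the medians of the genes. All 68 genes are highest in PBS 1, and most are lowest in PBS 2.

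The most-read members followed the order of the family. Rpl4, which lines the exit tunnel of the large subunit, had normalised read counts of 41778 (PBS 1), 27141 (PBS 2), 30141 (TSLP 1) and 31360.2 (TSLP 2). Rps3 had 40780.1, 22972, 25285 and 27242. Rpl13a, a large subunit protein, had 34939, 18635, 21453 and 22146 in the same order. In each of the 3 genes both TSLP libraries lay between PBS 2 and PBS 1. Their log2 fold changes between TSLP and PBS were −0.13 ± 0.32 (SE), −0.22 ± 0.34 and −0.23 ± 0.34 (limma, adjusted p = 0.9999 for each). Without PBS 1 they were 0.18, 0.19 and 0.23, on the other side of zero.

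The stalk proteins bring elongation factors to the ribosome. Rplp0, the base of the stalk, had normalised read counts of 27095 (PBS 1), 17354 (PBS 2), 20082 (TSLP 1) and 19392 (TSLP 2). Rplp1 had 25861.5, 11855, 13905 and 14229.6, and Rplp2 had 10991, 5112, 5697 and 5713. As a fold, PBS 1 exceeded PBS 2 by more in Rplp1 (2.18) and Rplp2 (2.15) than in Rplp0 (1.56), and the TSLP libraries again lay between. The log2 ratio of PBS 1 over the average of the remaining libraries (the PBS 1 ratio) was 0.52 for Rplp0, 0.96 for Rplp1 and 0.999 for Rplp2. The difference among them has no replicate check.

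Rps6, the 40S protein that S6 kinases phosphorylate, had normalised read counts of 4215 (PBS 1), 2880.5 (PBS 2), 3207 (TSLP 1) and 3265 (TSLP 2). Its TSLP libraries differed from each other by less than the PBS libraries did, and both lay between them. The log2 fold change was −0.11 ± 0.24 (SE, limma, unadjusted p = 0.672, adjusted p = 0.9999), and 0.17 without PBS 1. Rps6 had the lowest PBS 1 ratio of the 68 well-read members, a log2 of 0.44. Its windows were 15.44% unique.

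Rpl5 and Rpl11 form, with 5S ribosomal RNA, a particle that also binds Mdm2, the ligase that degrades p53. Rpl5 had normalised read counts of 11643 (PBS 1), 6258 (PBS 2), 6376 (TSLP 1) and 8028 (TSLP 2). Rpl11 had 8805, 4561, 4624 and 5194. In both genes TSLP 1 was close to PBS 2, TSLP 2 was higher, and PBS 1 was above all 3. The log2 fold changes were −0.25 ± 0.32 (SE) and −0.37 ± 0.31 (limma, unadjusted p = 0.441 and 0.265), and 0.19 and 0.10 without PBS 1. Rpsa, a 40S protein also known as the laminin receptor, had 8410.2, 4771, 6117 and 5698, and Rps27a, which is made as a fusion with ubiquitin, had 2502, 1453, 1848 and 1966. Their log2 fold changes were −0.10 ± 0.29 and −0.00018 ± 0.279, and 0.31 and 0.39 without PBS 1.

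The members with the lowest fold changes between TSLP and PBS did not pass the test either. Rpl27, a large subunit protein, had normalised read counts of 1519 (PBS 1), 1093 (PBS 2), 939 (TSLP 1) and 935 (TSLP 2). Both TSLP libraries were below both PBS libraries, and this member had the smallest p of the family. The log2 fold change was −0.46 ± 0.25 (SE, limma, unadjusted p = 0.0960, adjusted p = 0.9999), and −0.22 without PBS 1. Rpl39, a small protein of the exit tunnel, had 5157, 2702, 2541 and 2793, with a log2 fold change of −0.49 ± 0.30 and of −0.02 without PBS 1. In Rpl39 one TSLP library was under PBS 2 and the other above it. Rps28, a small 40S protein, had 3733, 1636, 1683.5 and 1939.6, with −0.45 ± 0.35 and 0.14 without PBS 1. The paralog Rps4l had 53 reads (PBS 1), 29 (PBS 2), 0 (TSLP 1) and 34 (TSLP 2), so its log2 fold change of −2.71 ± 1.73 on the log2(value + 1) scale rested on the library at 0. It was −1.18 in edgeR and in DESeq2, −2.31 without PBS 1 and −0.12 without TSLP 1. Rpl30, at the few reads given above, had −1.06 ± 2.295, −0.45 in edgeR, −0.44 in DESeq2 and −0.18 without PBS 1.

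At the other end stood Rps27, with a log2 fold change of 1.40 ± 0.86 (SE, limma, unadjusted p = 0.137, adjusted p = 0.9999). Its PBS 2 library, at 14.0, was low and the other 3 were closer together, and the log2 fold change was 2.52 without PBS 1 and 0.28 without PBS 2. Rpl15 had normalised read counts of 633 (PBS 1), 556 (PBS 2), 675 (TSLP 1) and 555 (TSLP 2), with overlapping groups and a log2 fold change of 0.05 ± 0.26, and 0.14 without PBS 1. Rpl17 had 801, 455, 672 and 548, with 0.01 ± 0.32 and 0.41 without PBS 1. Rpl21 had 277, 79.0, 142 and 161, with 0.03 ± 0.595 and 0.93 without PBS 1. All 3 are large subunit proteins. In Rpl17 and Rpl21 both TSLP libraries lay between PBS 2 and PBS 1, whereas in Rpl15 they did not.

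By their names 8 members are paralogs. Rpl22l1, a paralog of Rpl22, had normalised read counts of 1497 (PBS 1), 612 (PBS 2), 652 (TSLP 1) and 879.9 (TSLP 2). Rps27l had 471, 298, 249.7 and 418, Rpl36al had 478, 346, 370.2 and 396, and Rpl7l1 had 714, 856, 716 and 714. Rpl7l1 was the only one of these 4 that was highest outside PBS 1, with a log2 ratio of PBS 1 to the others of −0.09 against 1.08 for Rpl22l1, 0.58 for Rps27l and 0.37 for Rpl36al. Rpl7l1 is known as a factor of ribosome assembly in the nucleolus. The fifth with reads was Rps4l, given above. All 8 together took 0.0292%, 0.0200%, 0.0179% and 0.0228% of reads in PBS 1, PBS 2, TSLP 1 and TSLP 2.

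The comparison between TSLP and PBS asked whether a cytokine signal of 3 h moved the mRNA of the ribosome. No member passed the test. At an adjusted p under 0.05, limma called 0 of the 79 members and 0.0% of the 11392 genes tested. At an unadjusted p under 0.05 it called 0 members higher (0.772% of all genes), 0 lower (0.913%) and 1.69% of all genes in either direction (192 genes), and edgeR and DESeq2 on the recovered whole reads called 0 members and 234 genes each, with 0 at an adjusted p under 0.05. The means were lower with TSLP in 75 members and higher in 4 (48.8% and 51.2% of all genes). The median log2 fold change of the members was −0.20 beside 0.01 over all genes. By subunit it was −0.21 for the 32 tested 40S members and −0.20 for the 47 tested 60S members, and 0.22 and 0.20 without PBS 1.

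That direction rested on PBS 1. With TSLP compared with PBS 2 alone, in a fit that assumes that PBS 2 varies like the TSLP libraries, 74 members were higher with TSLP and 5 were lower, where 48.2% of all genes were higher. The 5 were Rpl39, Rpl27, Rps4l, Rpl7l1 and Rpl30. The median log2 fold change was 0.21 (−0.01 over all genes), and the values of the 68 well-read members ran from −0.22 to 0.48. At an unadjusted p under 0.05, 4 members were higher (1.69% of all genes) and none was lower (2.31% of all genes in either direction), and none passed at an adjusted p. The 4 were Rps27, Rps16, Rps29 and Rps18, of which the last 3 are named after their values were seen. Rps16 had normalised read counts of 7851 (PBS 1), 3708 (PBS 2), 4808 (TSLP 1) and 5037 (TSLP 2), with a log2 fold change of 0.41 (limma, unadjusted p = 0.0327, adjusted p = 0.979). Rps29 had 3764, 1659, 2199.8 and 2387, and Rps18 had 9848, 4844, 6023 and 6381. In all 3 PBS 1 was above both TSLP libraries and PBS 2 was below them. With PBS 1 kept and PBS 2 left out, the median was −0.64 and 65 members were lower at an unadjusted p under 0.05 (4.98% of all genes), with a smallest adjusted p of 0.262. The sign of the comparison thus depended on which PBS library stood for the control.

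**Figure D4:**
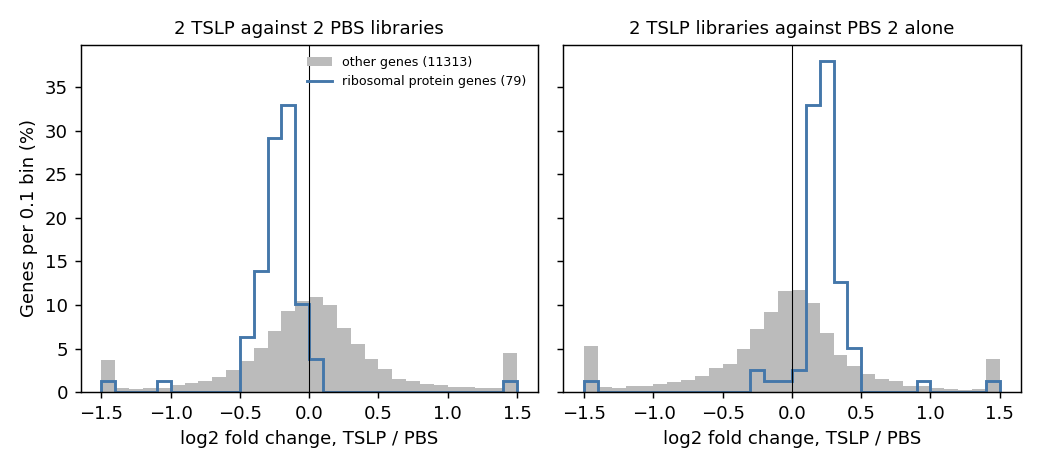
Distribution of log2 fold changes between TSLP and PBS for 79 ribosomal protein genes (blue line) and 11313 other genes (grey), in percent of genes per bin of 0.1, with both PBS libraries (left) and with PBS 2 alone (right). The end bins hold all values beyond them. The ribosomal protein genes centre on −0.20 with both PBS libraries and on 0.21 with PBS 2 alone.

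PBS 1 was above the other libraries for nearly the whole family. The PBS 1 ratio had a median log2 of 0.70 over the 79 members, 1.63-fold, beside 0.01 over all genes. The same ratio, each library against the other 3, was −0.45 for PBS 2, −0.19 for TSLP 1 and −0.07 for TSLP 2. PBS 1 was over 1.5-fold above the others in 60 members (18.8% of all genes) and over 1.5-fold below in none (20.2% of all genes). With 1 library against 3 there is no replicate check, so no p is given. Among the 68 well-read members the log2 ratio ran from 0.44 to 1.14 with an SD of 0.17. The highest ratios were those of Rpl36 (normalised read counts of 1921 in PBS 1 against 700.4, 983 and 969), Rpl41 (2951 against 1254, 1565 and 1335) and Rps28. Rpl36 and Rpl41 are small proteins of the large subunit, and Rpl41 has the shortest coding sequence among the members, 75 bases. Rps4l, Rpl30 and Rpl21 had ratios of 2.34, 1.88 and 1.18 on lower counts. The lowest ratios were those of Rpl7l1 (−0.09), Rpl15 (0.09), Rpl36al (0.37), Rps6 (0.44) and Rpl7 (0.44), the last with normalised read counts of 15215 (PBS 1), 10425 (PBS 2), 11381 (TSLP 1) and 11883 (TSLP 2).

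Length went with this ratio inside the family and outside it. Over the 68 well-read members, coding length and the PBS 1 ratio had a Spearman correlation of −0.58, and over 2552 other well-read genes it was −0.62. For the ratio of PBS 2 to its other 3 libraries the values were 0.48 and 0.58. Genes share libraries, so these are descriptions. The family's ratio was also set beside genes of like length. The 168 other genes with a coding length from 366.75 to 612 bases, the middle range of the family, and a mean of at least 1000 had a median log2 ratio of 0.32, PBS 1 was highest in 118 of them, and both TSLP libraries lay between the PBS libraries in 78. With the trend over coding length of well-read genes removed, the median of 78 members was 0.42 beside 0.01 over all genes. With the trend over exon length removed, it was 0.58 beside 0.15.

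**Figure D5:**
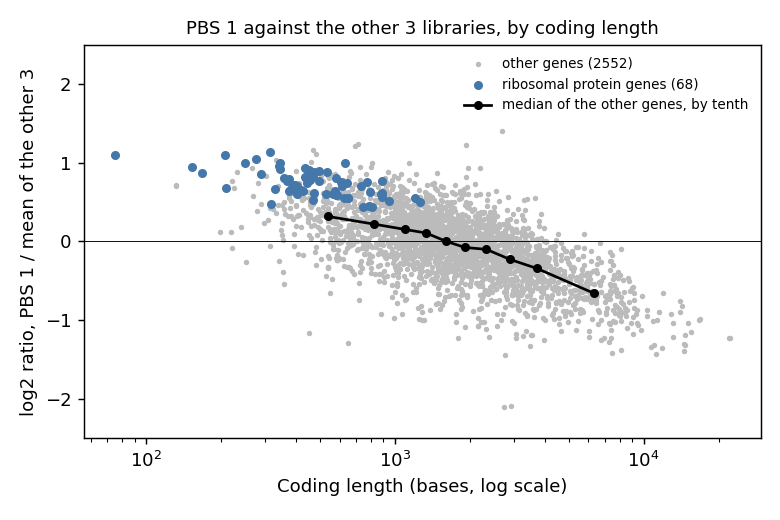
PBS 1 ratio, the log2 ratio of PBS 1 over the average of the remaining libraries, against coding length in bases (log scale), for 68 ribosomal protein genes (blue) and 2552 other genes (grey) with a mean normalised read count of at least 1000. Black points are medians of the other genes by deciles of coding length, and they fall from 0.31 to −0.66. The ribosomal protein genes run from 0.44 to 1.14, and most lie above the medians of other genes of their length.

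The same ratio was computed for other protein complexes whose genes are short. The median log2 ratio of PBS 1 was 0.51 for 76 tested genes of mitochondrial ribosomal proteins, 0.51 for 74 of the respiratory chain and 0.34 for 37 of the proteasome, beside 0.70 for the family. PBS 1 was highest in 48, 52 and 22 of them. Mitochondrial ribosomal protein genes took 0.200% (PBS 1), 0.135% (PBS 2), 0.136% (TSLP 1) and 0.164% (TSLP 2) of reads, so that TSLP 1 was at the level of PBS 2. The difference between these families was not tested. At an unadjusted p under 0.05, which 1.69% of all genes reached, limma gave 3 genes of these families, named after their values were seen. Their log2 fold changes were 0.94 for Mrpl28 and 0.72 for Mrpl24 of the mitochondrial ribosome and −0.92 for Uqcrq of the respiratory chain, and 1.35, 0.40 and −0.58 without PBS 1. None passed at an adjusted p.

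The rule misses some constituents of the cytosolic ribosome by their names, of which 3 are given here. Fau encodes Rps30 as a fusion, Rps3a1 encodes a 40S protein, and Rack1 is a scaffold on the 40S head. Fau had normalised read counts of 5790.3 (PBS 1), 2726 (PBS 2), 3133 (TSLP 1) and 3522 (TSLP 2). Rps3a1 had 9223, 5866, 6207 and 6754, and Rack1 had 31609, 19446, 22307.5 and 23747. In all 3 PBS 1 was highest, PBS 2 was lowest and both TSLP libraries lay between. Their log2 fold changes were −0.26, −0.18 and −0.11, and without PBS 1 they were 0.28, 0.14 and 0.24.

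The lists of genes that build or regulate the ribosome were read in the same way, where 48.8% of all genes had a lower mean with TSLP and 51.2% a higher one. Of 15 other genes with TOP mRNAs, mainly elongation and initiation factors, 12 were lower with TSLP and 3 higher, with a median log2 fold change of −0.11 (0.18 without PBS 1) and a median PBS 1 ratio of 0.47. Of 50 genes of RNA polymerase I and ribosomal RNA processing, 29 were lower and 21 higher, with a median of −0.06 (0.08 without PBS 1) and a PBS 1 ratio of 0.18. Of 47 genes of ribosome assembly and export, 24 were lower and 23 higher, with a median of −0.01 (0.06) and a PBS 1 ratio of 0.17. Of 18 genes of mTORC1 signalling to the ribosome, 11 were higher and 7 lower, with a median of 0.07 (−0.05) and a PBS 1 ratio of −0.03. No gene of these 4 lists passed at an adjusted p under 0.05 (limma), and at an unadjusted p under 0.05, which 1.69% of all genes reached, the count was 1. It was Rrn3, the initiation factor of RNA polymerase I, with normalised read counts of 401 (PBS 1), 445 (PBS 2), 669 (TSLP 1) and 617 (TSLP 2). Both TSLP libraries were above both PBS libraries, as in 14.5% of all genes. The log2 fold change was 0.60 ± 0.26 (SE, limma, unadjusted p = 0.0476, adjusted p = 0.9999), and 0.53 without PBS 1.

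Lars2, which encodes the mitochondrial leucyl-tRNA synthetase and whose mouse locus holds sequence like ribosomal RNA, was on the list of RNA quality genes. It had normalised read counts of 5660.4 (PBS 1), 2775 (PBS 2), 1621 (TSLP 1) and 2205 (TSLP 2), with a log2 fold change of −1.07 ± 0.33 (SE, limma, unadjusted p = 0.0109, adjusted p = 0.9999) and of −0.55 without PBS 1. Lars2 was higher in both PBS libraries than in both TSLP libraries, which held for 1 of the 79 tested ribosomal protein genes, Rpl27, and for 14.4% of all genes. Of the 7 tested genes on that list, 6 had a lower mean with TSLP and 1 a higher one, where 48.8% of all genes had a lower mean. The list's median log2 fold change was −0.58, and without PBS 1 it was −0.49, again with 6 lower and 1 higher. These were not the same genes, since Malat1 went from 0.05 to −0.56 and Rmrp, at 36 reads or fewer, from −0.61 to 0.12. Of the 79 members of the family 74 were then higher (48.2% of all genes). What RNA quality contributes to the family's values was not tested.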

How the data were processed

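RNA was sequenced from sorted Treg cells in 4 libraries, 2 with PBS and 2 with TSLP. The authors read 50 bases from one end, mapped the reads to the mm10 genome with Hisat2, counted them with HTSeq (1.99.2) and used DESeq2 (1.34.0). The annotation and the strand setting of the counting were not given in the sources used here, so reads of a gene and of an antisense or overlapping gene may not be told apart. The labels and the methods name different RNA extraction reagents. What the authors deposited is a scaled signal per gene, in which each library's reads had been divided by its size factor (0.957 to 1.06). It is called the normalised read count here, and CPM are the reads of a gene scaled to the library's reads on genes. Dividing by the step of each library gave whole reads for 100% of values within 0.01. Of the gene names 27 had turned into dates.

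The members, the lists and the alternatives were chosen with earlier results of these data known. Genes with 10 normalised reads or more in 2 or more libraries were tested with limma (3.58.1, R 4.3.3) on log2(normalised read count + 1) with an intensity trend, with Benjamini-Hochberg adjustment over 11392 genes. Fold changes are on this scale, on which those of genes at low values depend on the pseudocount and on any library at 0. The family's share was compared by an exact permutation test over libraries (scipy 1.17.1). PBS 1 against the other 3 libraries is a description, and so are medians over members. Fits were tested on simulated counts. Each gene was drawn independently, so a shift shared by a whole library, such as the trend over length in PBS 1, was not included. The changed genes were taken only from those with means well above the filter's minimum, so recovery at lower counts was not measured. Of 200 genes changed by a log2 of 1, limma recovered 7 (3.5%), edgeR 16 (8%) and DESeq2 49 (24.5%), with 0, 2 and 17 unchanged genes called. Of those changed by 2 they recovered 151 (75.5%), 159 (79.5%) and 168 (84%), with 6, 10 and 37 unchanged genes called, so smaller changes could go undetected. Depth was 10271571 to 11761234 reads on genes, and 0 reads allow up to 3 (0.255 to 0.292 CPM).

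Alternatives were edgeR (4.0.16) and DESeq2 (1.42.0) on whole reads, other filters, pseudocounts and scalings, removal of the trend over length, a replicate block, and leaving out each library. Coding lengths and positions came from GENCODE M21, in which 23310 of 24418 names had a unique length. The principal protein-coding transcript of each gene in that release gave the 50-base windows, and RefSeq gave the start sequences. Symbols are those of the table, with Rack1 listed there under an older symbol. Named members were the 5 with the highest mean, the 5 at each end of the fold change and of the PBS 1 ratio, those with no reads, the paralogs, Rplp0 to Rplp2, Rps6, Rpl5, Rpl11, Rpsa and Rps27a. Outside the family they were 3 constituents the rule misses and list genes at an unadjusted p under 0.05. Other genes are named where stated, and some items are not reported here.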

Additional observations from a re-analysis of the deposited data

How the results depend on the processing

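No gene and no member passed an adjusted p under 0.05 in any of the 18 alternatives of the fit (0 in each), and the median log2 fold change of the members stayed between −0.26 and −0.13 over tests, filters, pseudocounts, scalings and length trends. Leaving out single libraries moved it from −0.64 to 0.21, and edgeR without PBS 1 gave 0.22. The family's share differed between TSLP and PBS by −2.26 to 0.53 percentage points over such omissions. The median PBS 1 ratio was 0.42 with the trend over coding length removed, 0.87 against PBS 2 alone and 0.56 against TSLP 2 alone. The trend over coding length and the edgeR fits with a block or without PBS 1 were added after seeing the data.

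The deviations of the samples numbered 1 from their group means correlated at 0.00072 over 11392 genes. With 2 samples per group, and PBS 1 apart from the rest, this cannot decide whether the replicate numbers pair the samples. A block for the replicate number cannot move the limma fold changes in this balanced design, so the median stayed at −0.20. With the block 0 genes passed an adjusted p and 258 an unadjusted p under 0.05 (limma), against 192 without it. In edgeR the block gave a median of −0.21 and 0 genes at an adjusted p under 0.05. Without a filter 358 genes passed an unadjusted p under 0.05.

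Of 33 named genes, 22 turned direction without PBS 1. Leaving out single libraries gave log2 fold changes from −0.44 to 0.18 for Rpl4, −0.64 to 0.19 for Rps3, −0.68 to 0.23 for Rpl13a, −0.69 to 0.19 for Rpl8, −0.46 to 0.19 for Rplp0, −2.88 to 0.76 for Rpl30, −1.05 to 0.14 for Rps28, −0.096 to 0.19 for Rpl15, −0.87 to 0.93 for Rpl21, −0.40 to 0.41 for Rpl17, −0.39 to 0.39 for Rps27a, −0.26 to 0.0011 for Rpl7l1, −0.32 to 0.15 for Rpl36al, −0.38 to 0.17 for Rps6, −0.39 to 0.16 for Rpl7, −0.98 to 0.48 for Rpl36, −1.03 to 0.20 for Rpl41, −0.98 to 0.31 for Rpl22l1, −0.58 to 0.16 for Rps27l, −0.88 to 0.25 for Rplp1, −0.95 to 0.16 for Rplp2, −0.70 to 0.19 for Rpl5, −0.85 to 0.10 for Rpl11, −0.51 to 0.31 for Rpsa, −0.80 to 0.28 for Fau, −0.51 to 0.14 for Rps3a1 and −0.46 to 0.24 for Rack1. The sign also turned for Rpl21 (−0.24 in edgeR, −0.23 in DESeq2), Rpl17 (−0.044 in edgeR, −0.043 in DESeq2, −0.00029 scaled to total reads, −0.013 scaled to reads outside the family) and, with the trend over exon length removed, Rps27a (0.067) and Rpl36al (0.017). The cause was not tested.

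The log2 fold changes of Rpl30 (−1.06) and Rps4l (−2.71) rest on at most 13 and 53 reads in any library, and edgeR gave −0.45 and −1.18.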
